A study of Rattus norvegicus with 24 samples.

Results

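The miR-29 family was followed across 24 rat small-RNA libraries through 6 of the 1098 miRNAs in the table of counts. These were the mature strands rno-miR-29a-3p, rno-miR-29b-3p and rno-miR-29c-3p, the partner strands rno-miR-29a-5p and rno-miR-29c-5p, and rno-miR-3587, whose counts nearly equal those of rno-miR-29b-3p in every library. The 6 were chosen by name, and the family was selected on measured values, namely its changes in the PVN after hepatectomy and after each needling treatment relative to hepatectomy. Those 3 comparisons are therefore given as a description, with no p-value for the members and nothing read from how many were called. The other 3 comparisons in the PVN are sums or differences of them on the same libraries, so they and the differences between the nuclei that contain them are also given as a description. The 6 comparisons in the CEA and the comparison of the nuclei were tested.

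The study dissected the PVN, the periventricular nucleus of the hypothalamus in the words of its authors, and the CEA, the central nucleus of the amygdala, from young male Sprague–Dawley rats. NC rats had no operation. HT rats had part of the left liver lobe removed, HT + EA rats had the same operation with electroacupuncture at Zusanli and Sanyinjiao of a hind limb before and after it, and HT + SEA rats had the operation with needles at the same points and no current. All rats, those of the NC and HT groups included, were held in a restraint device for the same time, so restraint is shared by every group. Nucleus and treatment together gave 8 groups of 3 libraries. The study's methods state that the brain samples came from different animals of 1 batch, but they give fewer rats than there are libraries, and the labels do not say which rat gave which library. Libraries of the 2 nuclei may therefore share animals, and p-values measure spread between libraries, not rats. Within a nucleus that spread was mostly a value shared over all miRNAs. It weighed as 22.3 or more degrees of freedom, against 4 from the libraries of the miRNA itself. A small p there does not measure how that miRNA alone varied.

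Mature miRNAs guide the silencing complex to messenger RNAs that pair with their seed, the bases near the 5′ end. The miR-29 strands share a seed and are best known for repressing collagens and other matrix proteins and DNA methyltransferases. In the brain they are abundant in astrocytes and in maturing neurons, where they repress pro-apoptotic genes. The 3′ end of miR-29b is known to direct its import into the nucleus, a property that miR-29a lacks. The family is made from a pair of clusters, each giving miR-29b together with miR-29a or miR-29c.

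The mature sequences are printed because the members differ in few bases, which bears on how reads can be assigned to them. All 6 members matched RefSeq, and the capitals mark the seed, bases 2 to 8.
rno-miR-29a-3p: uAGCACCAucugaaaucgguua
rno-miR-29b-3p: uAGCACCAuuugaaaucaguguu
rno-miR-29c-3p: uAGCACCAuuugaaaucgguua
rno-miR-29a-5p: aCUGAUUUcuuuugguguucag
rno-miR-29c-5p: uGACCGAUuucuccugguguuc
rno-miR-3587: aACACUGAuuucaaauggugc
The seed AGCACCA was held by 3 of the 693 mature rat miRNAs in the RefSeq table, which were the 3 strands of the family, and all 3 were measured. Counting from the 5′ end, rno-miR-29a-3p and rno-miR-29c-3p differ by 1 substitution over 22 bases, C10U. From rno-miR-29c-3p to rno-miR-29b-3p there are 3 substitutions over the first 22 bases, G18A, U21G and A22U. The 5p strands and rno-miR-3587 each have a seed of their own.

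In RefSeq on GRCr8, Mir29a (chr4:60617955-60618042) and Mir29b1 (chr4:60618334-60618414) lie on the minus strand with 291 bases between their hairpins, and no other gene except miRNA genes overlaps them. Mir29b2 (chr13:109098831-109098911) and Mir29c (chr13:109099359-109099446) lie on the plus strand with 447 bases between them, within the span of the long noncoding RNA gene LOC102550527. Whether they are exonic or intronic there was not determined. Both Mir29b1 and Mir29b2 give the same rno-miR-29b-3p, so its counts cannot be divided between the clusters. The study's methods name an earlier rat assembly and the submitters' processing notes a human build, and the coordinates here were used only to describe the genes.

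The libraries held between 6584345 and 14913564 counts. In the PVN the medians were 7364616 for NC and 9276805 for HT, against 13460699 for HT + EA and 13447863 for HT + SEA, so depth moved with needling and its part in the results was not tested. Log2 profiles over 366 miRNAs correlated on average at 0.986 or above with the other libraries of the same nucleus. The lowest values belonged to PVN HT replicate 3 and CEA HT replicate 1, and CEA HT + EA replicate 3 had the lowest rno-miR-29b-3p. Values that moved most without these 3 libraries are given with and without them. The neuronal miR-9a-5p was at 90391 to 128692 CPM, counts per 1000000 counts of a library, in the 24 libraries, while the hepatocyte miR-122-5p was at 0.473 to 12.4 CPM.

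The members had widely different levels, and their order was the same in all 24 libraries. rno-miR-29a-3p was the most abundant, with 3177 to 5901 CPM over the 24 libraries and a median of 4722 CPM, which placed it at rank 36 of 1098 by mean level. rno-miR-29b-3p had 379 to 1455 CPM (median 741 CPM), and rno-miR-29c-5p had 239 to 661 CPM (median 293 CPM). rno-miR-29c-3p followed with 42.0 to 131 CPM (median 74.9 CPM) and rno-miR-29a-5p with 9.42 to 19.8 CPM (median 11.99 CPM). None of these ranges overlapped with the next except those of rno-miR-29b-3p and rno-miR-29c-5p. All are strands of 22 or 23 bases, and differences in capture between strands were not corrected. The counts behind these values ran from 62 for rno-miR-29a-5p to 79881 for rno-miR-29a-3p, and counting alone gives an error of 12.7% at the first and 0.35% at the second.

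**Figure D1:**
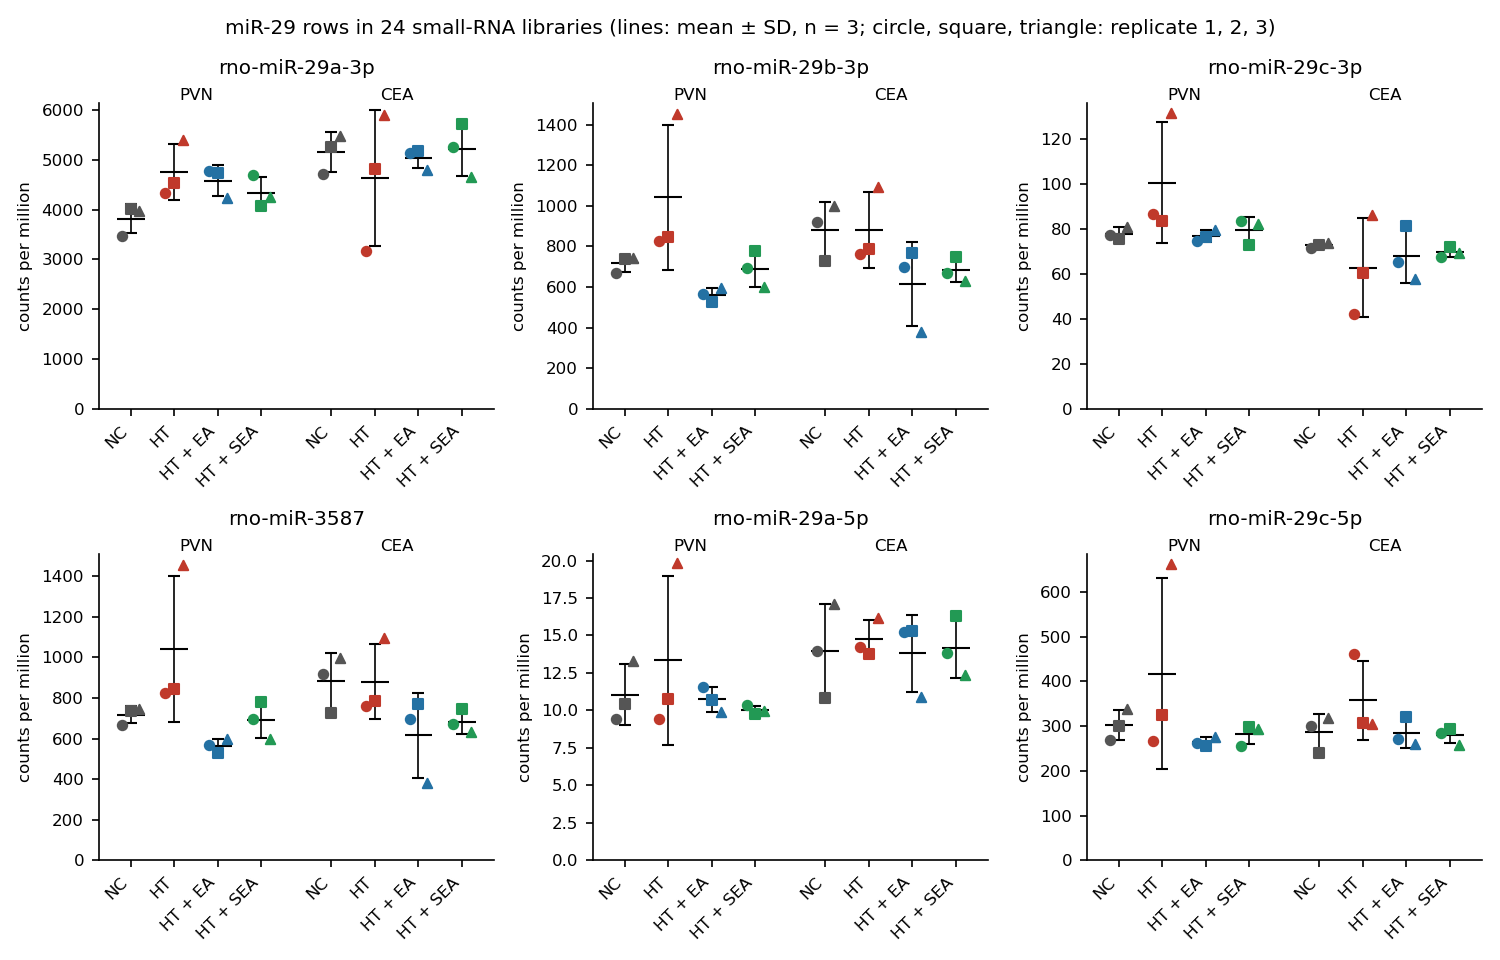
CPM of each of the 6 miRNAs in every library, by treatment on the horizontal axis and with the PVN on the left and the CEA on the right of each panel. Circles, squares and triangles are replicates 1, 2 and 3, and the lines are the mean ± SD (n = 3). rno-miR-3587 repeats the panel of rno-miR-29b-3p, and replicate 3 of PVN HT is the highest PVN library in all panels.

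rno-miR-3587 was not a separate measurement. Its sequence is the exact reverse complement of bases 3 to 23 of rno-miR-29b-3p, and its gene lies opposite Mir29b1 (chr4:60618307-60618369, plus strand). Its counts ran from 4399 to 16078, those of rno-miR-29b-3p from 4400 to 16079, and they differed by at most 4 counts in any library and were equal in 6 of 24. The same held for a neighbour outside the 6, named after its values were seen. rno-miR-3556b, with the sequence aCCGAUUUcaaauggugcua, is the reverse complement of bases 1 to 20 of rno-miR-29c-3p, and had 98.6% to 99.8% of its counts. rno-miR-3556a, also named after its values were seen, is the reverse complement of bases 1 to 18 of rno-miR-29a-3p and had 5.52% to 8.65% of its counts. Of 44 pairs of mature miRNAs in the table that overlap on opposite strands, 24 had summed differences of at most 1% of their counts. The sources used here do not say whether miRNA reads were counted by strand, so reads of a mature strand and of its opposite-strand partner cannot be told apart. The family thus gave 5 measurements, and rno-miR-3587 is counted with rno-miR-29b-3p below.

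**Figure D2:**
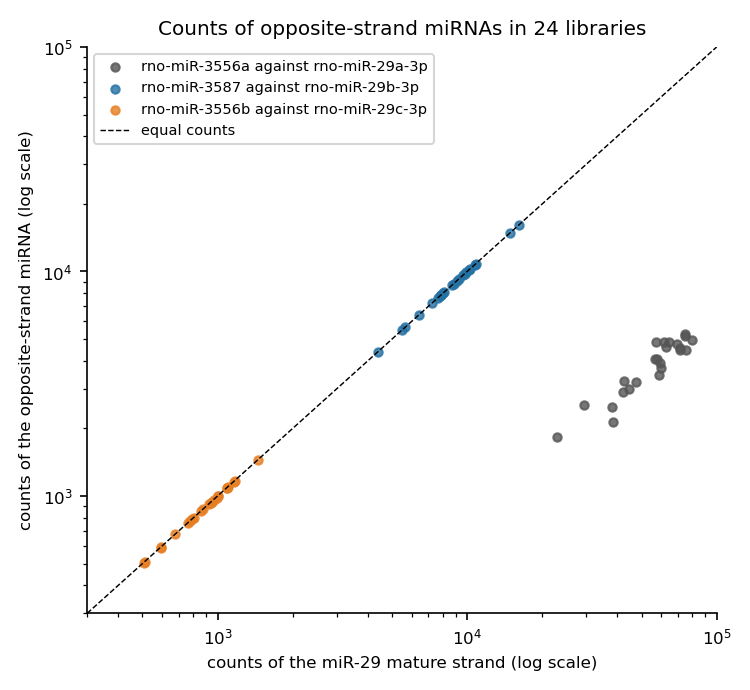
Counts of the opposite-strand miRNA against counts of the miR-29 mature strand in 24 libraries, both on log scales, with the dashed line at equal counts. The points of rno-miR-3587 and rno-miR-3556b lie on the line, and those of rno-miR-3556a lie below it at 5.52% to 8.65% of rno-miR-29a-3p.

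The first question was how the family stood in the PVN after hepatectomy. rno-miR-29b-3p was at 668, 738 and 744 CPM in the 3 NC libraries and at 826, 845 and 1455 CPM in the 3 HT libraries. The groups did not overlap, and the third HT library was far above the other 2. How many of all miRNAs had groups without overlap was not counted, so lack of overlap only describes the values, here and below. The log2 fold change was 0.49 (SE 0.15), and it was 0.19 without PVN HT replicate 3. In bulk tissue, fewer cells of a type and less RNA per cell cannot be told apart, here and in every later comparison.

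rno-miR-29a-3p was at 3478, 4002 and 3981 CPM in NC and at 4339, 4537 and 5395 CPM in HT. Again the groups did not overlap, with a log2 fold change of 0.28 (SE 0.13), or 0.18 without that library. rno-miR-29c-3p went from 77.0, 75.5 and 80.9 CPM to 86.6, 83.2 and 131 CPM, a log2 fold change of 0.33 (SE 0.19), or 0.10 without it. The strand rno-miR-29c-5p showed the dependence on 1 library most plainly. It was at 270, 300 and 337 CPM in NC and at 266, 324 and 661 CPM in HT, so the first 2 HT libraries lay within the NC range or below it. Its log2 fold change of 0.41 (SE 0.16) became -0.07 without PVN HT replicate 3. rno-miR-29a-5p had a log2 fold change of 0.23 with it and -0.16 without it. At the unadjusted p under 0.05 that the study used, 3 of the 5 measurements were called higher and 0 lower, against 10.9% of all 986 miRNAs tested. The family was selected on this comparison, so nothing is read from that count.

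The second question was how each needling treatment compared with hepatectomy alone. In HT + EA, rno-miR-29b-3p was at 566, 527 and 596 CPM, below all 3 HT libraries and also below all 3 NC libraries. The log2 fold change against HT was -0.84 (SE 0.14), or -0.58 without PVN HT replicate 3. In HT + SEA it was at 695, 778 and 600 CPM, with 1 library inside the NC range, 1 above it and 1 below it, and its log2 fold change against HT was -0.57 (SE 0.15), or -0.30 without that library.

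rno-miR-29a-3p did not share this course. It was at 4783, 4737 and 4224 CPM in HT + EA and at 4693, 4064 and 4252 CPM in HT + SEA, overlapping the HT libraries in both. Its log2 fold changes against HT were -0.02 (SE 0.10) and -0.12 (SE 0.10), or 0.037 and -0.065 without PVN HT replicate 3. rno-miR-29c-3p was at 74.4, 76.5 and 79.3 CPM in HT + EA and at 83.5, 72.5 and 81.9 CPM in HT + SEA, with log2 fold changes of -0.34 (SE 0.15) and -0.32 (SE 0.15) that shrank to -0.15 and -0.13 without PVN HT replicate 3. rno-miR-29c-5p was at 263, 256 and 276 CPM and at 256, 297 and 294 CPM, with log2 fold changes of -0.60 (SE 0.18) and -0.53 (SE 0.19), or -0.16 and -0.09 without it. For rno-miR-29a-5p they were -0.27 and -0.40, or 0.077 and -0.042 without it. In each of these comparisons 3 of the 5 measurements were called lower and 0 higher, against 11.4% of 985 miRNAs called for HT + EA and 8.3% of 1000 for HT + SEA, and the same limit on reading them holds. Both comparisons share the HT libraries with the first.

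**Figure D3:**
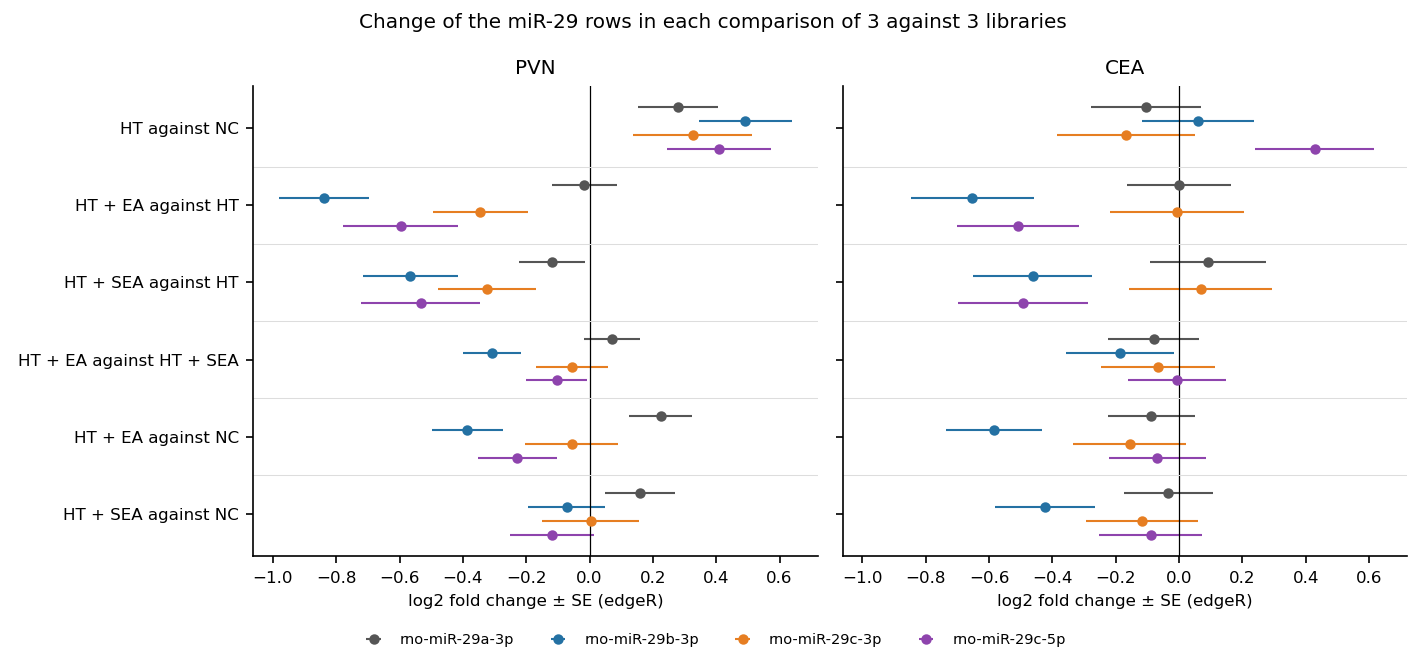
Log2 fold change with its standard error, from edgeR, for rno-miR-29a-3p, rno-miR-29b-3p, rno-miR-29c-3p and rno-miR-29c-5p in the 6 comparisons of each nucleus, PVN on the left and CEA on the right. The blue points of rno-miR-29b-3p lie below 0 in every comparison of HT + EA, while the grey points of rno-miR-29a-3p lie between -0.12 and 0.28 in the PVN.

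The remaining comparisons of the PVN use the same libraries again, and are given without a test for the same reason. Current was compared with needles alone. By the values above, 3 of 3 HT + EA libraries of rno-miR-29b-3p (527 to 596 CPM) lay below the lowest HT + SEA library (600 CPM). The log2 fold change was -0.31 (SE 0.09), a ratio of 0.807, or -0.19 without PVN HT + SEA replicate 2. The remaining 4 measurements had log2 fold changes from -0.10 to 0.09. The median log2 fold change was -0.06 over the 5 measurements and -0.02 over all 994 miRNAs, of which 7.14% were called.

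In HT + EA against NC, the log2 fold change of rno-miR-29b-3p in the PVN was -0.39 (SE 0.11), a ratio of 0.765, and the groups did not overlap (527 to 596 CPM against 668 to 744 CPM). For rno-miR-29a-3p it was 0.22 (SE 0.10), also with no overlap (4224 to 4783 CPM against 3478 to 4002 CPM), or 0.17 without PVN NC replicate 1. It was -0.06 (SE 0.15) for rno-miR-29c-3p, -0.23 (SE 0.12) for rno-miR-29c-5p and -0.08 (SE 0.20) for rno-miR-29a-5p. Of all 995 miRNAs, 12.2% were called, and the share is given as background only.

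In HT + SEA against NC, the log2 fold changes of the members in the PVN lay between -0.16 and 0.16, with 6.86% of 1006 miRNAs called. rno-miR-29b-3p was at -0.07 (SE 0.12) and rno-miR-29a-3p at 0.16 (SE 0.11). Both comparisons with NC share the NC libraries.

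No comparison of the CEA was among those on which the family was selected, but its members were chosen with earlier results of these data known. Its comparisons were tested with edgeR's quasi-likelihood test across all miRNAs and called at an unadjusted p under 0.05, with the Benjamini-Hochberg adjusted p beside each value. rno-miR-29b-3p was at 919, 728 and 999 CPM in NC, 763, 786 and 1095 CPM in HT, 698, 769 and 379 CPM in HT + EA, and 671, 748 and 631 CPM in HT + SEA. NC and HT overlapped, and the third HT + EA library was lower than any of the other 23. Hepatectomy gave a log2 fold change of 0.06 (SE 0.18, adjusted p = 1 by edgeR), and none of the 3p strands was called. rno-miR-29a-3p was at 4707, 5259 and 5481 CPM in NC and at 3177, 4821 and 5901 CPM in HT, a spread in HT that held both the lowest and the highest of its 24 values. The single call was rno-miR-29c-5p (log2 fold change 0.43, SE 0.19, adjusted p = 0.988 by edgeR), at 301, 239 and 317 CPM in NC and 460, 307 and 306 CPM in HT. Without CEA HT replicate 1 its log2 fold change was 0.07 and the call was lost, as it was in 6 other settings. Of all 996 miRNAs 3.82% were called.

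In HT + EA against NC, rno-miR-29b-3p fell in the CEA by 0.58 on the log2 scale (SE 0.15, adjusted p = 0.0245 by edgeR), a ratio of 0.667. This SE and p rest mostly on the spread shared over all miRNAs, weighted as 196 degrees of freedom against 4. Its groups overlapped, since the highest HT + EA library (769 CPM) was above the lowest NC library (728 CPM). At the unadjusted threshold it was called in all 15 other settings, with log2 fold changes from -0.76 to -0.34. The smallest change was that without CEA HT + EA replicate 3. Its adjusted p ran from 0.00086 to 0.972, the last by DESeq2. No miRNA had an adjusted p under 0.05 with filterByExpr, with at least 10 counts or with identical counts taken once. The same held in 1 fit of 24 libraries and without CEA HT + EA replicate 2. No other measurement was called, with log2 fold changes from -0.16 to -0.07, and 5.72% of 1014 miRNAs were called.

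Against HT, both needling groups had less rno-miR-29b-3p and rno-miR-29c-5p at the unadjusted threshold, and neither passed the adjustment. For HT + EA, rno-miR-29b-3p differed by -0.65 (SE 0.19, adjusted p = 0.252 by edgeR) and rno-miR-29c-5p by -0.51 (SE 0.19, adjusted p = 0.561 by edgeR), against 5.28% of 1004 miRNAs called. Without CEA HT + EA replicate 3 the first was -0.39, and without CEA HT replicate 1 the second was -0.16 and its call was lost. For HT + SEA the values were -0.46 (SE 0.19) and -0.49 (SE 0.21), both with an adjusted p of 0.676 by edgeR, against 4.7% of 999 miRNAs. Without CEA HT replicate 1 the value of rno-miR-29c-5p was -0.14, and without CEA HT replicate 3 that of rno-miR-29b-3p was -0.35, each with its call lost. Both calls of rno-miR-29c-5p against HT were also lost by library totals, by filterByExpr and with at least 10 counts. That of HT + EA was further lost without CEA HT + EA replicate 2, and that of HT + SEA without CEA HT + SEA replicate 1 and with the replicate block. The call of rno-miR-29b-3p in HT + SEA was also lost by library totals (-0.37) and without CEA HT + SEA replicate 1 (-0.46). rno-miR-29c-5p was at 271, 321 and 261 CPM in HT + EA and at 285, 293 and 259 CPM in HT + SEA, close to NC, and 460 CPM in CEA HT replicate 1 was its highest value in the nucleus.

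rno-miR-29c-3p was not called in any of the 6 comparisons of the CEA. It was at 71.4, 72.9 and 73.7 CPM in NC, 42.0, 60.1 and 86.1 CPM in HT, 65.1, 81.2 and 57.6 CPM in HT + EA, and 67.6, 71.8 and 69.0 CPM in HT + SEA. The groups overlapped, and HT had the widest range. rno-miR-29a-3p was at 5141, 5174 and 4803 CPM in HT + EA and at 5247, 5713 and 4662 CPM in HT + SEA, with log2 fold changes between -0.09 and 0.09 against NC and HT, none of them called.

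HT + SEA against NC in the CEA gave rno-miR-29b-3p at -0.42 (SE 0.16, adjusted p = 0.985 by edgeR), against 2.37% of 1014 miRNAs called. That call was lost when all 24 libraries shared 1 fit and without CEA NC replicate 1, CEA NC replicate 3 or CEA HT + SEA replicate 1. Across all miRNAs this comparison had 0 at an adjusted p under 0.05 and 24 at the unadjusted threshold by edgeR, and 0 and 7 by DESeq2. Between HT + EA and HT + SEA no member was called in the CEA, with rno-miR-29b-3p at -0.19 (SE 0.17, adjusted p = 0.997 by edgeR). It turned to 0.063 without CEA HT + EA replicate 3, and with the replicate block it was called at -0.24. In that comparison 2.24% of 1026 miRNAs were called, 23 of them by edgeR and 8 by DESeq2, with 0 at an adjusted p under 0.05 by either.

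The differences between the nuclei contain the PVN comparisons and are given as a description. For rno-miR-29b-3p the PVN minus CEA difference in the log2 fold change was -0.17 (SE 0.23) in HT + EA against HT + SEA, 0.20 (SE 0.22) in HT + EA against NC and 0.36 (SE 0.21) in HT + SEA against NC. Without the 3 libraries that stand apart the first was -0.41 and the second -0.039, while the third does not use them. For rno-miR-29a-3p it was 0.10 (SE 0.16), 0.31 (SE 0.16) and 0.21 (SE 0.17). Over all miRNAs, 0% of 1058, 0% of 1069 and 0% of 1076 were called at an adjusted p under 0.05 by edgeR, with 24, 40 and 24 at an unadjusted p under 0.05, and 0 in each by DESeq2. In HT against NC the differences were 0.31 (SE 0.22) for rno-miR-29a-3p, 0.35 (SE 0.25) for rno-miR-29b-3p and 0.41 (SE 0.29) for rno-miR-29c-3p. They were -0.11 (SE 0.27) for rno-miR-29c-5p and -0.0079 (SE 0.38) for rno-miR-29a-5p. Without those libraries rno-miR-29a-3p was at 0.16 and rno-miR-29b-3p at 0.13.

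Levels differed between the nuclei for 3 of the 5 measurements over all 24 libraries, with treatment as a term and calls at an adjusted p under 0.05. rno-miR-29a-3p was lower in the PVN than in the CEA by -0.24 on the log2 scale (SE 0.07, adjusted p = 0.0030 by edgeR). rno-miR-29a-5p, made from the same hairpin, was lower by -0.38 (SE 0.11, adjusted p = 0.0050 by edgeR). rno-miR-29c-3p went the other way, higher in the PVN by 0.24 (SE 0.09, adjusted p = 0.0235 by edgeR), but its call was lost without PVN HT replicate 3 (0.12, adjusted p = 0.233 by edgeR), without CEA HT replicate 1 (0.16) and in 9 other settings. rno-miR-29b-3p (-0.09, SE 0.10) and rno-miR-29c-5p (0.00, SE 0.10) were not called. With the replicate number as a block, for animals that the nuclei may share, the number of calls was again 3. Without PVN HT replicate 3, CEA HT replicate 1 and CEA HT + EA replicate 3 together, rno-miR-29b-3p was lower in the PVN (-0.23, adjusted p = 0.0147 by edgeR). Of all 1098 miRNAs, 39.9% were called.

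Ratios of counts within a library do not depend on the scaling between libraries, and are given as a description. For every 100 counts of rno-miR-29a-3p, PVN NC libraries had 19.2, 18.4 and 18.7 counts of rno-miR-29b-3p and PVN HT libraries had 19.0, 18.6 and 27.0. PVN HT + EA libraries had 11.8, 11.1 and 14.1, and PVN HT + SEA libraries 14.8, 19.2 and 14.1. Thus 2 of the 3 HT libraries lay within the NC range, while all 3 HT + EA libraries lay below both NC and HT.

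In the CEA the counts per 100 were 19.5, 13.8 and 18.2 in NC and 24.004, 16.3 and 18.6 in HT. They were 13.6, 14.9 and 7.89 in HT + EA and 12.8, 13.1 and 13.5 in HT + SEA. All 6 needled libraries were below all 3 HT libraries, and 5 of the 6 were below the lowest NC library. The group means were 18.8 ± 0.395 in PVN NC, 12.4 ± 1.56 in PVN HT + EA, 17.2 ± 2.98 in CEA NC and 12.1 ± 3.72 in CEA HT + EA (SD, n = 3). The mean ratio was thus lower in HT + EA than in NC in both nuclei, with no overlap in the PVN and with overlap in the CEA, on counts of 4400 or more for each strand.

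**Figure D4:**
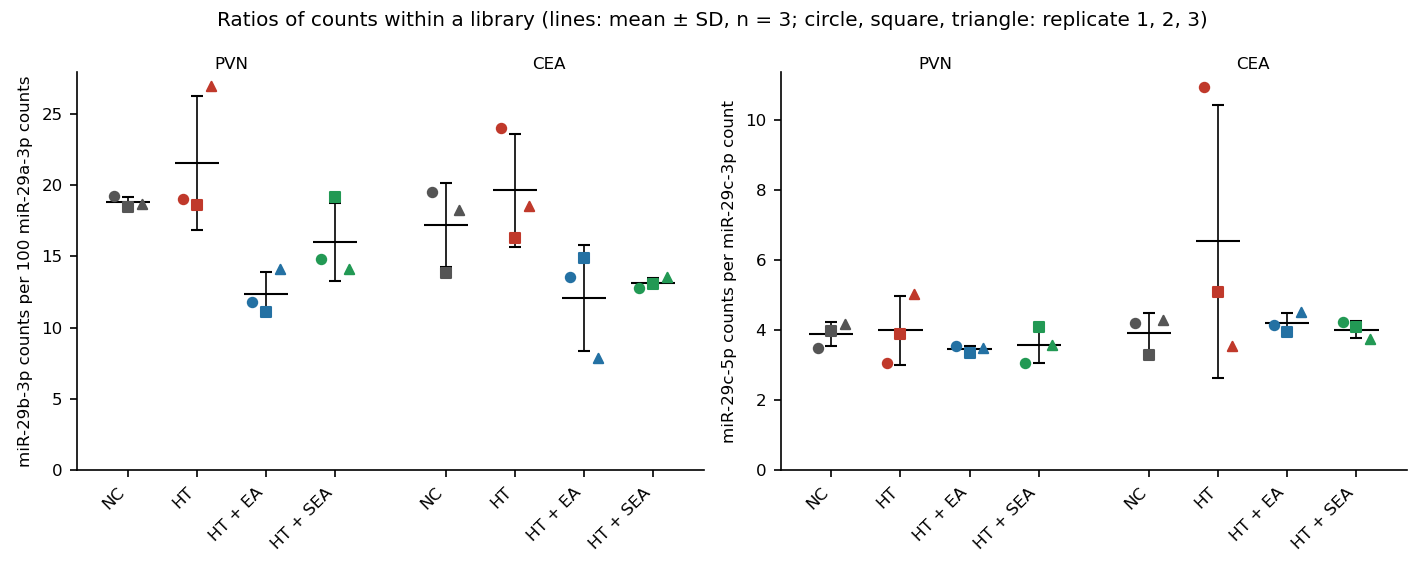
Counts of rno-miR-29b-3p per 100 counts of rno-miR-29a-3p (left) and counts of rno-miR-29c-5p per count of rno-miR-29c-3p (right) in each library, by treatment and nucleus. Circles, squares and triangles are replicates 1, 2 and 3, and the lines are the mean ± SD (n = 3). On the left the PVN HT + EA libraries (11.1 to 14.1) lie below the NC libraries (18.4 to 19.2), and on the right CEA HT replicate 1 stands at 11.0.

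The strand balance differed between the hairpins. rno-miR-29a-3p had 223 to 487 counts for each count of rno-miR-29a-5p and so was the dominant strand of its hairpin. For miR-29c the counts went the other way in all 24 libraries, with 3.07 to 11.0 counts of rno-miR-29c-5p for each count of rno-miR-29c-3p. How reads were assigned between rno-miR-29c-3p and the more abundant rno-miR-29a-3p, 1 base apart, is not known. The balance of miR-29c therefore describes the deposited counts only. The median was 3.97, and the highest value was that of CEA HT replicate 1, where rno-miR-29c-5p was high and rno-miR-29c-3p was at its lowest. rno-miR-29b-5p, the other arm of the Mir29b2 hairpin in RefSeq, was at 6.67 to 16.8 CPM. In HT + EA against NC its log2 fold change was 0.38 (SE 0.19) in the PVN, given as a description. In the CEA it was 0.04 (SE 0.26, adjusted p = 0.966 by edgeR) and was not called. The estimates of rno-miR-29b-3p were lower in both nuclei, with no test in the PVN. Each count of rno-miR-29b-5p stood against 63.7 to 74.6 counts of rno-miR-29b-3p in PVN NC and 35.6 to 44.9 in PVN HT + EA.

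Correlations of log2 CPM between members, after the mean of each nucleus was taken off, describe how they varied over the 24 libraries, which share depth and treatment. They were also computed without PVN HT replicate 3, CEA HT replicate 1 and CEA HT + EA replicate 3, a choice made after seeing the data, and several changed. rno-miR-29b-3p went with rno-miR-29c-5p at r = 0.67 (0.63 without the 3 libraries), with rno-miR-29a-5p at 0.70 (0.34) and with rno-miR-29a-3p at 0.22 (0.14). rno-miR-29a-3p and rno-miR-29c-3p, which differ by 1 base, had r = 0.66 (0.39). Both strands of miR-29c were at r = 0.88 over 12 libraries of the PVN and -0.49 over 12 of the CEA, and at 0.15 over 11 and 0.25 over 10 without the 3 libraries, so both values rested on them.

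The most similar miRNAs were sought among 355 known ones outside the family with a mean of at least 10 CPM. For rno-miR-29a-3p they were miR-22-3p (r = 0.82, or 0.84 without the 3 libraries), miR-107-3p (0.77, or 0.84) and miR-124-5p (0.75, or 0.74). For rno-miR-29b-3p they were miR-153-3p (0.85, or 0.75), miR-138-5p (0.83, or 0.64) and miR-136-5p (0.77, or 0.74). For rno-miR-29c-3p they were miR-331-3p (0.80, or 0.52), miR-384-3p (0.71, or 0.22, where it fell to rank 75) and miR-138-5p (0.70, or 0.71).

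Marker miRNAs of the cells such a dissection can hold are given beside the changes of rno-miR-29b-3p, and their part in them was not tested. No listed marker was at 0 in every library of a group. Some markers had the course of rno-miR-29b-3p in the PVN. Of the 5 neuronal miRNAs, miR-128-3p and miR-138-5p were called higher in HT than in NC and lower in HT + EA and in HT + SEA than in HT, with 0 called the other way. Of the 4 oligodendrocyte miRNAs, miR-338-3p was called in the same directions. In HT + EA against HT, miR-219a-5p was also called lower, in all 15 alternatives as well (-1.10 to -0.85). There miR-219a-2-3p was called higher, in 11 of 15 alternatives. Of the 3 liver miRNAs, the hepatocyte miR-122-5p was likewise called higher in HT than in NC (log2 fold change 1.97, SE 0.41) and lower in HT + EA and HT + SEA than in HT (-1.39 and -2.25), and higher in HT + EA than in HT + SEA (0.84). Its HT libraries were at 12.4, 1.08 and 1.18 CPM and its NC libraries at 1.67, 1.12 and 0.95 CPM, so PVN HT replicate 1 alone was above the NC range. Without that library the first log2 fold change was -0.20 and none of the 3 comparisons with HT was called.

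miR-128-3p, a neuronal miRNA, was at 7225, 9681 and 9556 CPM in PVN NC, 13098, 13779 and 11731 CPM in HT, 9775, 9892 and 9155 CPM in HT + EA and 10859, 11577 and 7961 CPM in HT + SEA, so all 3 HT libraries were above all others of the nucleus. Its log2 fold change was 0.52 (SE 0.12, adjusted p = 0.0014 by edgeR, and 3.1e-06 to 0.245 over 15 alternatives) in HT against NC, and -0.39 (SE 0.10) and -0.33 (SE 0.12) in HT + EA and HT + SEA against HT. miR-138-5p was at 348, 411 and 614 CPM in HT and miR-338-3p at 261, 287 and 451 CPM, and for both the highest was replicate 3, as for rno-miR-29b-3p. Without that library the log2 fold change in HT against NC was 0.17 for miR-138-5p, which was no longer called, and 0.30 for miR-338-3p, and neither was called in HT + SEA against HT (-0.11 and -0.15). Over the alternatives of HT + SEA against HT, miR-138-5p was called in 7 of 15, miR-338-3p in 10 of 14 and miR-128-3p in 13 of 15. The adjusted p of miR-138-5p in HT against NC was under 0.05 in 0 of 15. The summed neuronal level overlapped between PVN NC (121879 to 130547 CPM), HT (122155 to 130783 CPM) and HT + SEA (118255 to 126797 CPM), and the summed oligodendrocyte level between NC (1973 to 3002 CPM), HT (2829 to 2985 CPM) and HT + SEA (2773 to 3174 CPM).

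In the PVN of HT + EA rats against NC, 1 of 4 oligodendrocyte miRNAs was called lower and 2 higher. miR-219a-5p, which promotes oligodendrocyte maturation, fell by 0.90 (SE 0.16, adjusted p = 1.3e-05 by edgeR), while miR-219a-2-3p rose by 0.36 (SE 0.11, adjusted p = 0.0315 by edgeR). The summed level of that list was 1973 to 3002 CPM in NC and 2866 to 3641 CPM in HT + EA. miR-219a-5p also fell in the CEA of HT + EA rats against NC, by 1.12 (SE 0.17, adjusted p = 1.4e-07 by edgeR), where 1 of 4 of the list was called lower and 0 higher and its summed level was 4533 to 7708 CPM in NC and 5546 to 7592 CPM in HT + EA. miR-219a-5p was called in all 15 alternatives of both comparisons. Its adjusted p ranged from 1.2e-08 to 0.287 in the first and from 4.5e-14 to 0.419 in the second, and was under 0.05 in 11 and 10 of the 15, while that of miR-219a-2-3p in the PVN was under 0.05 in 6.

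Of the 5 neuronal miRNAs, 1 (miR-218a-5p) was called lower in the PVN and 2 in the CEA of HT + EA rats against NC, and 0 higher in either. Against HT in the CEA, the same 2 were called lower in HT + EA (miR-128-3p and miR-218a-5p), and 0 in HT + SEA. In PVN HT + EA against HT + SEA, miR-218a-5p and the oligodendrocyte miR-219a-5p were called lower, with 0 of either list higher. miR-219a-5p was called in all 15 alternatives (-0.86 to -0.48). Of the other lists, myeloid had 1 called each way and red cell 1 lower. Endothelial and mural, liver and striated muscle had 1 higher each, and astrocyte and glia 0. The summed level of the 5 neuronal miRNAs was 118732 to 123021 CPM in PVN HT + EA, and in the CEA it was 170199 to 190573 CPM in NC and 154840 to 166758 CPM in HT + EA. Of the 6 astrocyte and glial miRNAs, 1 was called lower in the PVN and 0 in the CEA. Their sum was 27003 to 27838 CPM in PVN NC and 28522 to 30386 CPM in PVN HT + EA, and overlapped in the CEA (39673 to 47469 CPM and 41673 to 47225 CPM).

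Among myeloid miRNAs 1 of 5, miR-223-3p of neutrophils, was called lower in PVN HT + EA than in NC, at 22.3, 89.0 and 81.2 CPM in NC, 1.02, 1.40 and 1.54 CPM in HT and 10.3, 8.98 and 11.9 CPM in HT + EA. The summed myeloid level was 280 to 381 CPM in PVN NC, 247 to 268 CPM in HT and 247 to 307 CPM in HT + EA. Of 4 red cell miRNAs 2 were called lower in HT + EA than in NC in each nucleus. In the CEA 1 of the 5 myeloid miRNAs was called lower, and its NC and HT + EA sums overlapped (290 to 404 CPM and 260 to 423 CPM). The endothelial and mural list had 1 of 4 called higher in the PVN and 0 in the CEA, and the striated muscle list had 2 of 3 called lower in the PVN and 1 of 3 in the CEA. None of the 3 liver miRNAs was called in HT + EA against NC in either nucleus.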

How the data were processed

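Small-RNA libraries were made with a ligation kit from total RNA of the PVN and CEA. Per the study's methods, the authors mapped reads with HISAT2 and counted them with featureCounts on the rat genome mRatBN7.2; the submitters' processing notes name the human build GRCh38 (hg38). How miRNA reads were assigned, by strand or among repeated copies, is not given in the sources used here. The deposited counts are whole numbers per miRNA. They were tested with edgeR 4.0.16 in R 4.3.3 (TMM scaling, glmQLFit and glmQLFTest) for miRNAs with at least 1 count in the 6 libraries compared, with Benjamini-Hochberg adjustment over all of them. Calls within a nucleus use the study's threshold, an unadjusted p under 0.05. The nuclei were compared over 24 libraries with treatment as a term, and their interactions over 12, at an adjusted p under 0.05. CPM are counts per 1000000 counts of the library, and errors are the SD over 3 libraries. Another 24 columns of per-sample values were not used. Scripts were tested on simulated data. DESeq2 1.42.0 and other scalings, filters and designs were alternatives. Sequences and positions are from RefSeq (GRCr8).

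The 6 comparisons of the PVN and the differences between the nuclei were fitted in the same way, but no p is given for the members, which were selected on those libraries. The members and the marker lists were chosen with earlier results of these data known. The text names the 6 miRNAs, any other miR-29 arm or strand with their seed, the 3 miRNAs most correlated with each 3p strand, and the marker lists. Same-numbered libraries of 2 groups did not deviate together in every pair (correlation over 0.1), except in CEA HT against NC (0.18 to 0.34) and, between nuclei, within NC and HT + SEA. Counting intervals cover counting error only.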

Additional observations from a re-analysis of the deposited data

How the results depend on the processing

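The number of miR-29 miRNAs called stayed within 1.5 times of the main one in 174 of 192 combinations of comparison and alternative. By that measure a fall from 3 to 2 calls counts as unchanged, and so does 0 staying at 0. It also includes comparisons of the PVN, the differences between the nuclei and rno-miR-3587. The share is therefore no measure of how stable single calls were. rno-miR-29b-3p stayed lower in HT + EA than in NC, HT or HT + SEA in both nuclei under every alternative, except in the CEA against HT + SEA without CEA HT + EA replicate 3 (0.063); in the PVN that direction is tied to the selection. When libraries were left out one at a time, rno-miR-29b-3p went from 0.19 to 0.61 in PVN HT against NC and rno-miR-29c-5p from -0.067 to 0.63, both lowest without PVN HT replicate 3. When all 24 libraries shared 1 fit, rno-miR-29b-3p in the PVN was at -0.298 in HT + EA against HT + SEA and -0.374 in HT + EA against NC. The number of the 6 miR-29 miRNAs called in the CEA, given next, includes rno-miR-3587. For CEA HT against NC it was 0 by DESeq2, by library totals, by filterByExpr, with at least 10 counts and with identical counts taken once, and 0 to 1 leaving out 1 library. For CEA HT + SEA it was 0 by library totals against HT (0 to 3 leaving out 1 library) and 0 in 1 fit of 24 libraries against NC (0 to 2). The replicate block raised it to 2 in CEA HT + EA against HT + SEA (rno-miR-29b-3p and rno-miR-3587, at -0.24), ended the call of rno-miR-29c-5p in CEA HT + SEA against HT (-0.43), and changed no other call of a member. The cause of these changes was not tested.

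Small values turned sign. rno-miR-29b-3p in CEA HT against NC was -0.0017 by library totals and -0.041 to 0.22 leaving out 1 library. In PVN HT + SEA against NC it was -0.20 to 0.017, and in CEA HT + EA against HT + SEA -0.36 to 0.063. Its difference between the nuclei in HT + EA against NC was -0.039 without the 3 libraries that stand apart, a choice made after seeing the data. rno-miR-29a-3p in CEA HT + EA against HT was -0.0052 by DESeq2 and by its size factors in edgeR, -0.013 by filterByExpr, -0.012 with at least 10 counts, -0.026 with identical counts taken once, -0.10 without the 3 libraries and -0.14 to 0.16 leaving out 1. In CEA HT + SEA against NC it was 0.016 by library totals, 0.015 with at least 10 counts, 0.0099 in 1 fit of 24 libraries and -0.065 to 0.10 leaving out 1. Leaving out 1 library gave it -0.22 to 0.033 in CEA HT against NC, -0.051 to 0.24 in CEA HT + SEA against HT and -0.16 to 0.019 in CEA HT + EA against HT + SEA.

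Over all miRNAs, DESeq2 called 75, 80, 51, 47, 79 and 36 in the 6 PVN comparisons, in the order of the report, against 107, 112, 83, 71, 121 and 69 by edgeR. In the CEA comparisons of HT against NC, HT + EA against HT, HT + SEA against HT and HT + EA against NC it called 7, 26, 21 and 23 against 38, 53, 47 and 58. Leaving out 1 library moved the counts most in PVN HT + SEA against HT, to 25 without PVN HT + SEA replicate 3. With the replicate block the differences between the nuclei in HT + EA against HT + SEA, HT + EA against NC and HT + SEA against NC had 5, 8 and 4 calls against 0, none of them a member.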
